A study of Mus musculus with 29 samples.

Results

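The effect of a conditioning lesion was compared with no lesion in cultures of adult cortical neurons on day 5 after plating. The lesion group, Lesion_D5, held 3 libraries from wild-type adult C57/BL6 mice that had been injured in vivo a day before their cortical cells were plated. The naive group, Naive_D5, held 3 libraries from wild-type adult C57/BL6 mice with no injury. These 6 libraries, chosen by treatment and day in their titles, are part of 29 libraries in 10 groups, lesion and naive at days 1, 2, 3, 5 and 7. All 10 groups share the strain, the wild-type genotype and the culture of cortical cells, so a difference at day 5 combines what the injury did in the animal with what followed over 5 days in the dish. The labels do not say where the lesion was placed, the exact age or the sex of the animals, nor if a group's 3 libraries stem from different animals or cultures. The p-values therefore rest on a spread between libraries that may be technical. Their estimated 37 degrees of freedom are more than these 6 libraries alone can give. That spread is thus not the spread of the day 5 libraries alone.

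A conditioning lesion is an earlier injury that changes how a neuron later grows: in peripheral sensory neurons it is known to raise transcription factors and cytoskeletal genes that speed axon regrowth, while neurons of the adult brain and spinal cord regrow poorly. A dish of dissociated adult cortex holds neurons together with glia, vessel cells and meningeal fibroblasts. Of these, fibroblasts, pericytes and astrocytes can divide in culture, while neurons cannot.

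The values come from the authors' deposited table of lesion against naive, made with voom and limma, which lists 5826 of 19085 genes tested, those with an adjusted p under 0.1 on at least 1 of the 5 days. It gives a log2 fold change, a p-value and a Benjamini-Hochberg adjusted p-value per day, and no value per library, so neither the level in each library nor the sequencing depth can be shown. Positive log2 fold changes mean higher in lesion cultures. Rose and fell are used for genes whose adjusted p was under 0.1, and every value is given ± the standard error implied by the fold change and its p-value. Genes outside the table stayed at an adjusted p of 0.1 or above on all days. The table sets lesion against naive only, so a rise can come from more RNA in lesion cultures or from less in naive ones. As these are bulk samples, fewer cells of a type and less RNA per cell cannot be told apart.

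At day 5, 4575 genes passed the threshold in the authors' deposited table, 24% of the genes tested. Of these, 2438 rose (12.8%) and 2137 fell (11.2%). Direction went with expression rank, read here from the table's rank column with 1 as the highest. Among abundant genes, taken here as those with a rank of mean expression up to 9542, 947 rose (9.92%) and 1906 fell (20%). Among the scarcer genes 1491 rose and 231 fell. The median log2 fold change of the listed genes was -0.51 at ranks 1 to 1000, with a median implied standard error of 0.21, and 3.73 beyond rank 15000, where the median standard error was 1.36. A gene is listed only if it passed the threshold on some day. Where errors are large only large changes pass, which raises the size of such medians. Over all 5826 listed genes the median was 0.17, and over the 3607 abundant ones it was -0.65.

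**Figure D1:**
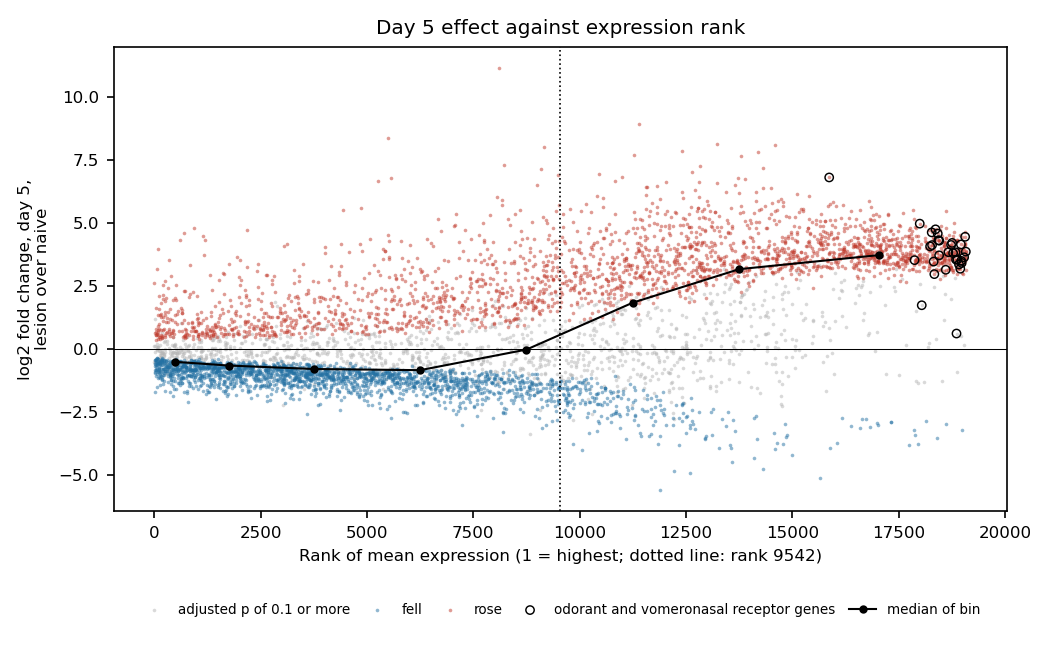
Log2 fold change at day 5, lesion over naive, of the 5826 listed genes (points) against their rank of mean expression, with genes that rose in red, genes that fell in blue, the others in grey, the median of 8 rank bins as a black line, and odorant and vomeronasal receptor genes ringed. Medians lie between -0.84 and -0.02 up to rank 10000 and between 1.84 and 3.73 beyond it, and the ringed genes all lie beyond rank 15000.

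Odorant and vomeronasal receptor genes, which serve smell and are not known for a role in cortex, show where the scarce end of the scale lies. The authors' deposited table lists 31 such genes, of which 29 rose at day 5 and none fell. Their median log2 fold change was 3.84, and the most abundant of them stood at rank 15865. Receptor genes that passed on no day are not listed and not counted, which raises this share. Of all 827 listed genes at ranks 15001 to 19085, 723 rose and 21 fell, with a median of 3.73. The risen share of the listed receptor genes is thus near that of all listed genes at such ranks. The part of the receptor genes in the rises of other scarce genes was not tested. For that reason abundant genes lead the account below, counts of list members are followed by the count of abundant ones where it differs, and a gene beyond rank 9542 is marked as scarce. The gene lists were chosen with earlier results of these data known. Their shares, set beside those of all genes tested, are therefore descriptions and not tests.

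Labelled as adult neurons, the cultures carried neuronal transcripts at high ranks: Gad1, an enzyme of GABA synthesis, ranked 244, the neuronal tubulin gene Tubb3 321 and the synaptic gene Snap25 843 in the authors' deposited table. Transcripts of other cell types were also ranked, with Csf1r of microglia at 2651, Col1a1 of fibroblasts at 4434, Gja1 of astrocytes at 4864 and Cldn5 of endothelium at 6488. Whether these ranks allow for transcript length is not stated, so they are no measure of cell numbers.

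The 4 highest log2 fold changes among abundant genes belonged to the extracellular matrix and its turnover. The fibrillar collagens form the load-bearing fibres of connective tissue, and 7 of 11 rose in lesion cultures with none fallen, or 63.6% against the 12.8% of all genes tested. Col3a1 had the highest log2 fold change of any abundant gene in the authors' deposited table (11.14 ± 2.36, adjusted p = 0.00144), followed by Col1a2 (8.37 ± 1.43, adjusted p = 0.000137). Col1a1 (5.53 ± 0.61) and Col5a1 (2.19 ± 0.33), a collagen that regulates fibre diameter, had smaller errors in the authors' deposited table. Other collagens gave 11 of 19 risen and none fallen (6 of the risen ones abundant), among them the beaded-filament chains Col6a1 (3.90 ± 0.59) and Col6a2 (7.30 ± 1.53) of the authors' deposited table. Basement membrane genes gave 8 of 21 risen and none fallen (7 of these abundant), including Col4a1 (3.33 ± 0.70), Col4a2 (2.53 ± 0.65) and the linker gene Nid2 (4.27 ± 0.91) of the authors' deposited table.

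The enzymes and chaperones that make collagen into fibres rose with the chains. Of 22 collagen maturation genes 17 rose and none fell (10 of the risen ones abundant). Lox, which crosslinks collagen and elastin, rose by 4.61 ± 0.52 with an adjusted p of 1.65e-07 in the authors' deposited table. Serpinh1, the collagen chaperone of the endoplasmic reticulum, had 4.31 ± 0.51, and Pcolce, which helps to cleave procollagen, had 5.01 ± 0.83 in the authors' deposited table. Matrix glycoproteins gave 25 risen and 1 fallen of 40 (22 and 1 of these abundant). Fbln2 (4.09 ± 0.40, adjusted p = 9.07e-09) and Efemp2 (3.61 ± 0.44) belong to elastic fibres, and Sparc (3.19 ± 0.45) encodes a collagen-binding protein, in the authors' deposited table. The fallen member was Sparcl1 (-1.43 ± 0.27 in the authors' deposited table), a relative of Sparc that astrocytes and neurons make.

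Genes that cut the matrix and genes that restrain the cutting moved the same way. Of 25 matrix proteases 13 rose and none fell (7 of these abundant). Mmp14, a membrane-bound protease that activates Mmp2, had 2.36 ± 0.24, adjusted p = 3.46e-08, and Mmp2 itself had 3.38 ± 0.59 in the authors' deposited table. Mmp3 had a large and less certain rise (8.02 ± 2.21, adjusted p = 0.0129 in the authors' deposited table). Of 15 protease inhibitors 10 rose and 2 fell (8 and 2 of these abundant). The metalloproteinase inhibitors Timp1 (4.81 ± 0.45, adjusted p = 6.52e-09), Timp3 (4.16 ± 0.44) and Timp2 (2.13 ± 0.24) and the anti-angiogenic serpin Serpinf1 (2.95 ± 0.32) were among the risen genes of the authors' deposited table. The fallen inhibitors were Serpini1 (-1.51 ± 0.28), the neuronal serpin neuroserpin, and Serpine2 (-0.73 ± 0.27), both in the authors' deposited table.

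Proteoglycans fill the space between fibres. Of 29 members 14 rose and 3 fell (7 and 2 of these abundant). Bgn, a small proteoglycan of connective tissue, had 4.37 ± 0.55, adjusted p = 1.19e-06, and Gpc1, a lipid-anchored heparan sulphate proteoglycan, had 2.32 ± 0.30 in the authors' deposited table. The fallen members Cspg5 (-1.12 ± 0.29), Ncan (-1.04 ± 0.39) and the scarce Hapln1 (-2.87 ± 0.76) of the authors' deposited table are known from the matrix around brain neurons. Among 20 integrins, the receptors that bind cells to matrix, 10 rose and none fell (5 of these abundant), led by the common beta chain Itgb1 (1.98 ± 0.33) and the fibronectin receptor chain Itga5 (2.73 ± 0.64) of the authors' deposited table.

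The protein-folding and export route through the endoplasmic reticulum rose as well. All 17 of the 34 chaperone genes that passed the threshold rose, and all of them were abundant. Txndc5, a disulphide isomerase, had 2.11 ± 0.22, adjusted p = 4.14e-08, and the prolyl isomerases Fkbp9 (2.02 ± 0.30) and Fkbp7 (2.77 ± 0.42) followed in the authors' deposited table. Hspa5, the master chaperone of the unfolded protein response, had 0.80 ± 0.21, a smaller value than those of the collagen-handling Fkbp10 (5.16 ± 0.95) and Crtap (3.18 ± 0.72) in the authors' deposited table. No test was made between these genes. Transport genes between the reticulum and the Golgi gave 15 risen and 3 fallen of 44. The coat gene Copz2 (3.41 ± 0.59), the cargo receptor partner Mcfd2 (1.34 ± 0.24) and the retrieval receptor Kdelr2 (1.29 ± 0.23) rose, while the coat genes Sec23a (-0.91 ± 0.27), Sec24b (-0.95 ± 0.39) fell with Sec16a, which marks exit sites, in the authors' deposited table.

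**Figure D2:**
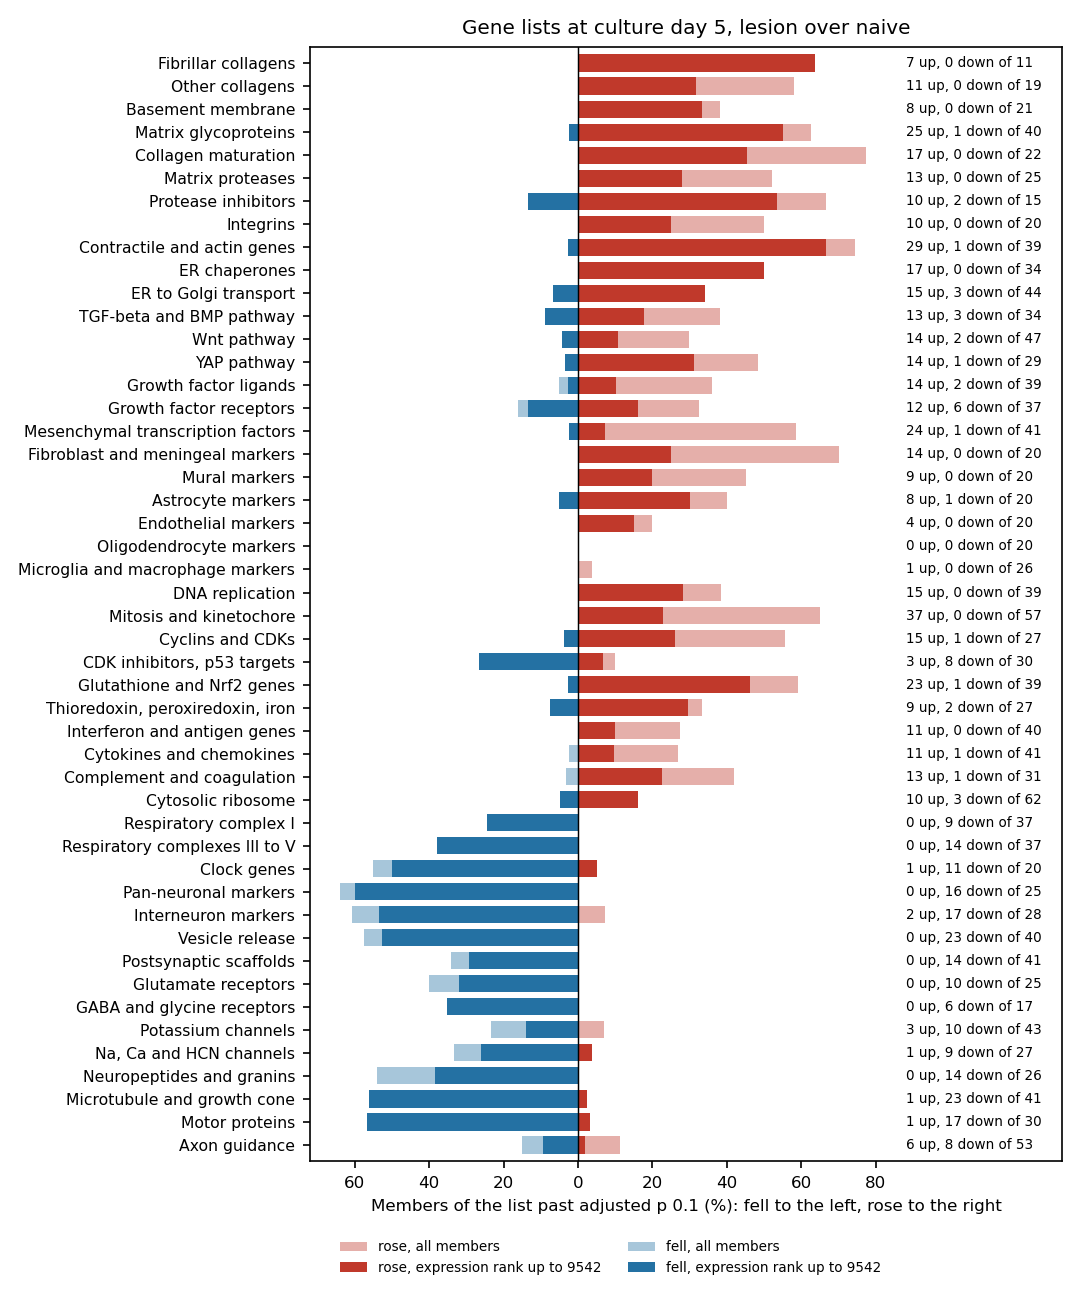
Share of each gene list that passed an adjusted p of 0.1 at day 5, lesion over naive: members that fell extend to the left and members that rose to the right, in dark colour where the gene has an expression rank up to 9542 and in pale colour for all members; numbers at the right count members. Matrix, contractile, cell cycle and glutathione lists extend to the right, and neuronal, motor, clock and respiratory lists to the left, with 23 of 40 vesicle release genes fallen.

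Genes of the contractile actin cytoskeleton rose with the matrix. Of 39 such genes 29 rose and 1 fell, and 26 of the risen ones were abundant. They had a median log2 fold change of 1.92 over the abundant listed members against -0.65 over all abundant listed genes. The membrane-actin linker Anxa2 (2.12 ± 0.26, adjusted p = 8.19e-07), its relative Anxa1 (4.72 ± 0.63) and the calcium-binding S100a6 (3.65 ± 0.46) had the smallest p-values of the list in the authors' deposited table. Tagln (4.20 ± 0.58) and Tpm2 (4.67 ± 0.65) are known from smooth muscle and activated fibroblasts. The fallen gene was Myh10 (-1.05 ± 0.42 in the authors' deposited table), the non-muscle myosin that is prominent in brain. Among non-neuronal intermediate filament genes 6 of 10 rose (4 of these abundant), including the nuclear lamin Lmna (1.81 ± 0.20, adjusted p = 1.65e-07) and Vim (2.56 ± 0.44) of the authors' deposited table.

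Signalling genes that accompany connective tissue rose in part. TGF-beta and BMP genes gave 13 risen and 3 fallen of 34 (6 and 3 of these abundant), with the ligand Tgfb1 (2.11 ± 0.60), the receptor Tgfbr2 (2.00 ± 0.70) and the target Id3 (1.08 ± 0.18) risen in the authors' deposited table. The fallen members were the related targets Id2 (-1.06 ± 0.19) and Id4 (-1.05 ± 0.33) and the BMP antagonist Nog (-1.03 ± 0.34) of the authors' deposited table. YAP, a growth-promoting co-activator that responds to tension, with its partners and targets gave 14 risen and 1 fallen of 29 (9 and 1 of these abundant), among them Ctgf (2.90 ± 0.54) and Dock5 (4.51 ± 0.79) of the authors' deposited table. Wnt pathway genes gave 14 risen and 2 fallen of 47, of which 5 risen ones were abundant, Fzd2 (2.61 ± 0.54), a receptor, among them in the authors' deposited table. Hedgehog genes gave 5 of 13 risen (2 of these abundant), with the co-receptor Gas1 at 7.15 ± 1.16 and the transducer Smo at 2.82 ± 0.58 in the authors' deposited table. Notch pathway genes gave 4 risen and 1 fallen of 22 (2 and 1 of these abundant), with 18.2% risen against 12.8% of all genes tested. The neuronal Notch ligand Dner had the smallest adjusted p of all fallen abundant genes in the authors' deposited table (-1.46 ± 0.20, adjusted p = 6.56e-06), against the target Hes1 (2.50 ± 0.59) and the ligand Jag1 (1.88 ± 0.59), which rose.

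Growth factor ligands gave 14 risen and 2 fallen of 39, but only 4 risen ones were abundant. Scarce ligands of the epidermal growth factor receptor, Areg (3.64 ± 0.59) and Ereg (7.83 ± 1.44), and the scarce fibroblast growth factor gene Fgf7 (4.40 ± 0.76) led in the authors' deposited table. Receptors divided, with 12 risen and 6 fallen of 37 (6 and 5 of these abundant). Receptors Axl (3.64 ± 0.75), Egfr (2.58 ± 0.59) and Pdgfrb (3.19 ± 1.05) rose in the authors' deposited table. The neurotrophin receptors Ntrk2 (-1.21 ± 0.34), Ntrk3 (-2.14 ± 0.70, scarce) and Ngfr (-1.46 ± 0.39), the neuregulin receptor Erbb4 (-2.52 ± 0.60) and Fgfr2 (-1.45 ± 0.32) fell in the authors' deposited table. Mesenchymal transcription factors gave 24 risen and 1 fallen of 41. Of the risen ones 3 were abundant, and Prrx2, a homeobox gene of mesenchyme, had 3.58 ± 0.35, adjusted p = 9.07e-09 in the authors' deposited table.

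Markers of cell types other than neurons moved unevenly beside these groups. Fibroblast and meningeal markers gave 14 of 20 risen and none fallen, with 5 risen ones abundant. Only 3 of the 14 belong to no other list, as the collagens and mesenchymal factors among them are counted above too. Their scarce members Crabp2 (5.37 ± 0.76) and Prrx1 (4.69 ± 0.72) had smaller adjusted p-values than Lum (5.10 ± 1.66) and Dcn (2.77 ± 0.93), proteoglycans that define fibroblasts and were scarce as well, in the authors' deposited table. Mural markers, of pericytes and smooth muscle, gave 9 of 20 risen and none fallen (4 of these abundant), and astrocyte markers 8 risen and 1 fallen of 20 (6 and 1 of these abundant). The gap junction gene Gja1 (5.59 ± 0.99) and S100b (2.48 ± 0.57) rose, and Atp1b2 (-1.03 ± 0.32) fell, in the authors' deposited table. Endothelial markers gave 4 of 20 risen (3 of these abundant), a share of 20% against 12.8% of all genes tested. The risen ones were Slc2a1 (1.60 ± 0.49), Esam (2.00 ± 0.67), Abcb1a (2.72 ± 0.94) and the scarce Erg, while the defining Cldn5 (1.16 ± 1.25, adjusted p = 0.533) did not pass in the authors' deposited table. Markers of oligodendrocytes gave 0 of 20 past the threshold in either direction, and those of microglia and macrophages 1 of 26, the scarce Tmem119 (5.06 ± 1.03 in the authors' deposited table). Oligodendrocyte precursor markers gave 2 risen and 2 fallen of 15 (1 and 1 of these abundant). Markers of lymphocytes and neutrophils (3 risen of 18), ependyma and choroid plexus (2 risen and 1 fallen of 16), Schwann cells (4 and 1 of 10) and epithelial junctions (7 risen of 24) had mostly scarce risen members. Their risen shares were 16.7%, 12.5%, 40% and 29.2% in that order. The shares of the lymphocyte and ependymal lists are near the 12.8% of all genes tested. Neural progenitor genes gave 3 risen and 5 fallen of 20, and the fallen share of 25% is near the 20% of abundant genes that fell. The part of all these cell types in the matrix, cytoskeletal, cell cycle and neuronal results was not tested, and their summed level per group cannot be given without values per library.

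**Figure D3:**
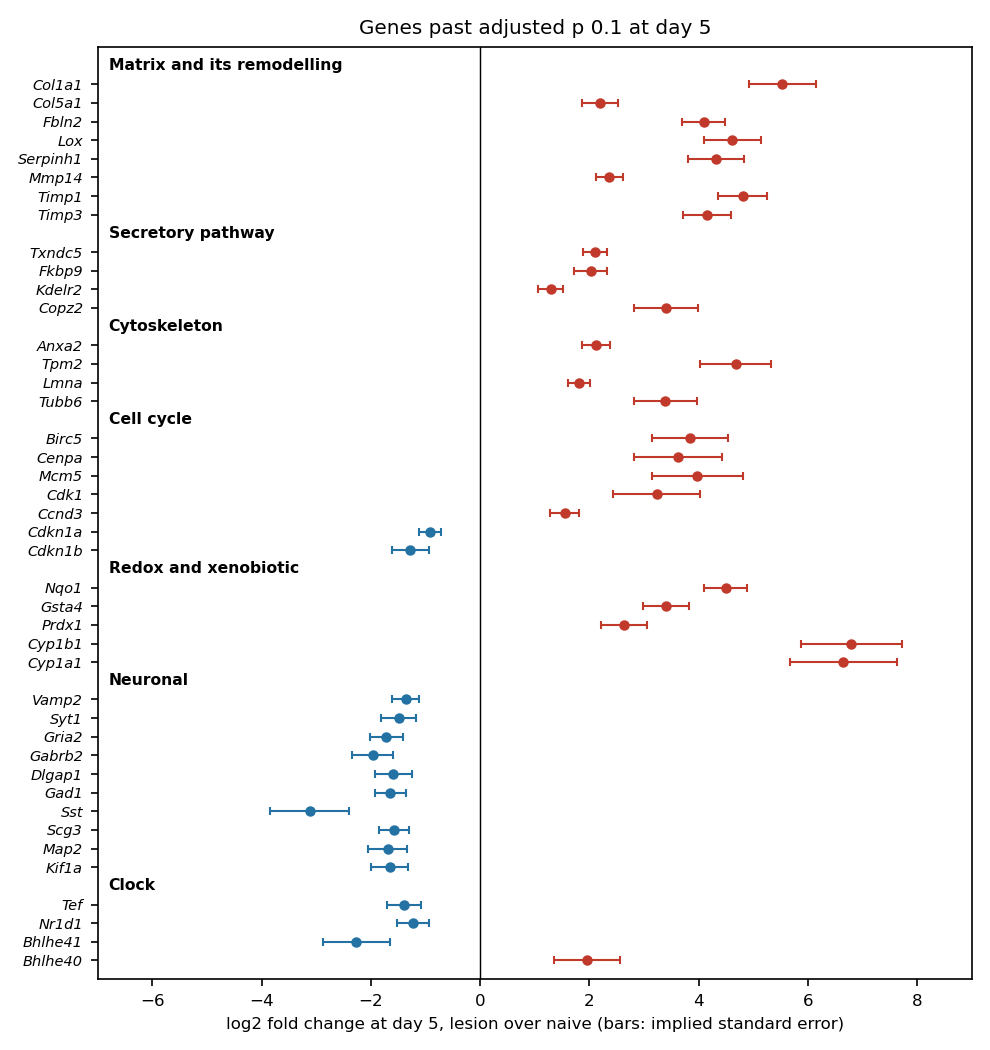
Log2 fold change at day 5, lesion over naive, of genes named in the text (points, with bars for the implied standard error), grouped by role; red points rose and blue points fell. Risen genes lie between 1.29 (Kdelr2) and 6.79 (Cyp1b1), and the neuronal genes between -3.12 (Sst) and -1.37 (Vamp2).

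Genes of cell division were higher in lesion cultures. Mitosis and kinetochore genes gave 37 of 57 risen and none fallen, 13 of the risen ones abundant. Birc5, a subunit of the chromosomal passenger complex, had 3.84 ± 0.69, adjusted p = 0.000256, and the scarce kinetochore gene Nuf2 had 6.45 ± 1.39 and the scarce mitotic kinase gene Plk1 3.95 ± 0.85 in the authors' deposited table. Replication genes gave 15 of 39 risen and none fallen (11 of these abundant), with Mcm5 of the replicative helicase at 3.97 ± 0.84 and Tyms, which makes thymidylate, at 2.28 ± 0.48 in the authors' deposited table. Cyclins, their kinases and E2F factors gave 15 risen and 1 fallen of 27 (7 and 1 of these abundant). Ccnd3, a cyclin of early cycle entry, had 1.54 ± 0.26, adjusted p = 0.000138, and the mitotic kinase Cdk1 had 3.23 ± 0.79 in the authors' deposited table. The fallen member was Rb1 (-1.66 ± 0.52 in the authors' deposited table), which restrains entry into the cycle.

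Of 30 cyclin-dependent kinase inhibitors and p53 targets 3 rose and 8 fell, all 8 of the fallen ones abundant. The fallen share of 26.7% is near the 20% of abundant genes that fell. Cdkn1a, the p53-induced inhibitor p21, had -0.92 ± 0.20, adjusted p = 0.00174, and Cdkn1b, the inhibitor p27, had -1.28 ± 0.34 in the authors' deposited table. Perp, a p53 target that also serves cell junctions, rose by 3.61 ± 0.86 in the authors' deposited table.

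Many genes of late cell division are known to carry the cell cycle homology element TTTGAA near their start, so promoters of RefSeq (build GRCm38.p6, 250 bases before to 50 after the start site) were searched for it on both strands. A match stood in 37 of 49 mitosis and kinetochore genes with a promoter in that set, or 75.5%, and in 25 of the 31 such genes that rose, or 80.6%, against 20.2% of 27025 genes in all. In replication genes the share was 13.3% (4 of 30) and in cyclins and their kinases 27.8% (5 of 18). The box CCAAT, whose letters cannot lie inside TTTGAA, stood in 69.4%, 63.3% and 66.7% of the 3 lists, against 41.1% of all genes. These shares describe letters in a window, not binding or control. The 250 bases before the start of the 3 risen genes with a match there and the smallest adjusted p, among mitosis genes and cyclins with their kinases, are shown 5′ to 3′ on the gene's strand, with each match to TTTGAA or its reverse complement in capitals. Ccnb2 encodes a cyclin of mitosis (chr9:70421555-70421804, minus strand), Ncapg a condensin subunit (chr5:45669675-45669924, plus strand) and Cdk1 the mitotic kinase (chr10:69352913-69353162, minus strand).
Ccnb2: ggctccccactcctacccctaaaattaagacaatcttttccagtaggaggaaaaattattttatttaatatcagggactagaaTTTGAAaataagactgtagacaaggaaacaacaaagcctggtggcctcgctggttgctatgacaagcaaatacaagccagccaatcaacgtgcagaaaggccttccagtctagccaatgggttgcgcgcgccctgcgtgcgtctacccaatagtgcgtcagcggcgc
Ncapg: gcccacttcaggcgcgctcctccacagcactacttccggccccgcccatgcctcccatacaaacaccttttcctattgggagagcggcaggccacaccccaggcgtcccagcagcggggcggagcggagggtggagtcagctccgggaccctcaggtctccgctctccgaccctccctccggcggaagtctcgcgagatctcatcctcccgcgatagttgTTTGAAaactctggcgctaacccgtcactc
Cdk1: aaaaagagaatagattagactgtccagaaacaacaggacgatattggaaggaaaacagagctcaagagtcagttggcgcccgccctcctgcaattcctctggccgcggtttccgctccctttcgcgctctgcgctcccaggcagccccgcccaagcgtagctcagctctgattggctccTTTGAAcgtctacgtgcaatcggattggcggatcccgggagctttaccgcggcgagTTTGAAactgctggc
The Cdk1 window held 2 matches and the other windows 1 each. Ccnb2 (3.28 ± 0.66, scarce) and Ncapg (4.99 ± 1.11, scarce) rose alongside Cdk1 in the authors' deposited table.

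Antioxidant and detoxifying genes rose, and a quinone reductase led the whole comparison. Nqo1 had the smallest adjusted p of all listed genes in the authors' deposited table (4.49 ± 0.39, adjusted p = 1.27e-09), a 22.5-fold higher level in lesion cultures. Of 39 glutathione and Nrf2-type genes 23 rose and 1 fell, with 18 of the risen ones abundant. Gsta4, a glutathione transferase for lipid aldehydes, had 3.39 ± 0.42, adjusted p = 9.71e-07, and Cbr3, a carbonyl reductase, 3.35 ± 0.44, adjusted p = 2.65e-06 in the authors' deposited table. Glutathione synthesis rose at Gclc (1.44 ± 0.30) and Gss (1.40 ± 0.27), cystine import at Slc7a11 (1.91 ± 0.63), and the pathway's transcription factor gene Nfe2l2 had 1.42 ± 0.41 in the authors' deposited table. The fallen member was the transferase Mgst3 (-0.66 ± 0.22 in the authors' deposited table). Thioredoxin, peroxiredoxin and iron genes gave 9 risen and 2 fallen of 27 (8 and 2 of these abundant), with the peroxide reductases Prdx1 (2.62 ± 0.42) and Prdx6 (1.60 ± 0.39) risen and Park7 (-0.48 ± 0.16) and Sod1 (-0.46 ± 0.19) fallen in the authors' deposited table. In the pentose phosphate pathway, which supplies NADPH to these enzymes, 2 of 16 genes rose, Pgd (1.58 ± 0.36) and G6pdx (1.49 ± 0.37) in the authors' deposited table.

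A pair of cytochrome P450 genes stood among the 8 highest fold changes of abundant genes. Cyp1b1 had 6.79 ± 0.92, adjusted p = 4.9e-06 and Cyp1a1 6.65 ± 0.98, adjusted p = 1.75e-05 in the authors' deposited table. Both are classic targets of the aryl hydrocarbon receptor, a sensor of planar aromatic compounds. Other known targets of that receptor, looked up after these values were seen, were the scarce Ahrr (5.54 ± 1.14, adjusted p = 0.00116) and Aldh3a1 (4.59 ± 1.17, adjusted p = 0.00737), while the receptor gene Ahr did not pass (1.59 ± 0.82, adjusted p = 0.175, scarce) and Tiparp is not listed in the authors' deposited table.

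The antioxidant element TGACNNNGC, to which Nrf2 and its partners bind, was searched in the same windows on both strands. It stood in 9 of 34 glutathione and Nrf2-type genes (26.5%), in 5 of 22 thioredoxin, peroxiredoxin and iron genes (22.7%), and in 14% of 27025 genes. Of the glutathione genes that rose 28.6% held it (6 of 21). The 250 bases before the start are shown for the 3 risen members of both lists with a match there and the smallest adjusted p, with matches in capitals on either strand. Ugdh makes UDP-glucuronate for conjugation (chr5:65435843-65436092, minus strand), Prdx1 reduces peroxides (chr4:116685349-116685598, plus strand) and Mgst1 is a membrane-bound glutathione transferase (chr6:138140277-138140526, plus strand).
Ugdh: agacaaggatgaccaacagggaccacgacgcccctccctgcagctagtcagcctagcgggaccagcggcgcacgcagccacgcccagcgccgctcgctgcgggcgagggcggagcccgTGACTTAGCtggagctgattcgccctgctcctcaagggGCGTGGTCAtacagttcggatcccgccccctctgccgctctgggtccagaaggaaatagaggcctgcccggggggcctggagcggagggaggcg
Prdx1: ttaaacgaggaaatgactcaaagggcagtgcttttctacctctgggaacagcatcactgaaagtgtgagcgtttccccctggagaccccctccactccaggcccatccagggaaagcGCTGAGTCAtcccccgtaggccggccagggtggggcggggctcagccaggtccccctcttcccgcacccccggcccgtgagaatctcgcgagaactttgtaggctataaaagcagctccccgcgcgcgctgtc
Mgst1: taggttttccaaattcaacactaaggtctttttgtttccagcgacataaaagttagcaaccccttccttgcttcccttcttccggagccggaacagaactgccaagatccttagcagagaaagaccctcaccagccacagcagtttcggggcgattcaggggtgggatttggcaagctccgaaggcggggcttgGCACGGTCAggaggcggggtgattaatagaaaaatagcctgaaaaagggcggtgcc
The log2 fold changes of Ugdh (2.00 ± 0.29) and Mgst1 (2.42 ± 0.65) in the authors' deposited table stand beside that of Prdx1 above. The windows of Nqo1 and Cbr3 held no match, which says only that these letters are not in the bases searched, and Gsta4 was not matched to a window.

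Immune and clotting genes rose in part, and cell death genes went both ways. Interferon and antigen presentation genes gave 11 of 40 risen and none fallen, a risen share of 27.5% against 12.8% of all genes tested. Only 4 of these risen genes were abundant. They were led by Ifitm2 (3.57 ± 0.49, adjusted p = 5.92e-06) and Ifitm3 (3.29 ± 0.69), membrane proteins that block virus entry, in the authors' deposited table. Cytokines, chemokines and receptors gave 11 risen and 1 fallen of 41 (4 and 0 of these abundant), among them the tumour necrosis factor receptor Tnfrsf1a (1.61 ± 0.38) and the scarce Il11 (3.68 ± 0.74) of the authors' deposited table. The risen share was 26.8%, and most risen members of this list and of the interferon list were scarce. Complement and coagulation genes gave 13 risen and 1 fallen of 31 (7 and 0 of these abundant), with 41.9% risen against 12.8% of all genes tested. The protein C receptor Procr (3.84 ± 0.64, adjusted p = 0.000111) and the urokinase receptor Plaur (2.87 ± 0.49) led in the authors' deposited table. Cell death genes divided, with 6 risen and 7 fallen of 36 (3 and 6 of these abundant). The necroptosis kinase Ripk3 rose (5.03 ± 0.90, adjusted p = 0.000218), and the apoptotic genes Bbc3 (-1.01 ± 0.30) and Apaf1 (-1.17 ± 0.43) fell together with the survival gene Bcl2l1 (-0.65 ± 0.22), in the authors' deposited table.

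Neuronal markers, synaptic genes and peptides were lower in lesion cultures, and channel genes were so in part. Excitatory layer markers, axon guidance genes and effectors of regeneration showed no such majority. Pan-neuronal markers gave 16 of 25 fallen and none risen (15 of these abundant). Meg3, a long non-coding RNA of neurons, had -2.11 ± 0.36, adjusted p = 0.000137, with Rtn1 at -1.51 ± 0.32 and Syt1 at -1.49 ± 0.32 in the authors' deposited table. Tubb3 (-0.79 ± 0.35, adjusted p = 0.116) did not pass in the authors' deposited table. Expressed as a median, the abundant listed members stood at -1.18, against -0.65 for all abundant listed genes. Interneuron genes gave 17 fallen and 2 risen of 28 (15 and 0 of these abundant), the risen ones scarce. The enzymes of GABA synthesis Gad1 (-1.64 ± 0.28, adjusted p = 0.000132) and Gad2 (-1.97 ± 0.36) and the vesicular GABA transporter Slc32a1 (-1.87 ± 0.39) fell, and somatostatin, Sst, had a larger and less certain change (-3.12 ± 0.72, adjusted p = 0.00343) in the authors' deposited table. Developmental regulators of this lineage, Dlx1 (-1.21 ± 0.38) and Dlx2 (-1.73 ± 0.46), fell too in the authors' deposited table. Excitatory markers gave few calls: 1 risen and 1 fallen of 15 upper-layer genes (0 and 0 of these abundant), and 3 risen and 1 fallen of 19 deep-layer genes (2 and 1 of these abundant). Among deep-layer genes Ctgf, already counted with YAP pathway genes, and Foxp1 (1.72 ± 0.49) rose and Pcp4 (-1.57 ± 0.27) fell in the authors' deposited table.

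The machinery of transmission fell on both sides of the synapse. Vesicle release genes gave 23 of 40 fallen and none risen (21 of these abundant), or 57.5% against 11.2% of all genes tested and 20% of abundant ones. They include Amph (-1.41 ± 0.24), which bends membrane at endocytosis, and the vesicle SNARE Vamp2 (-1.37 ± 0.24) in the authors' deposited table. Synpr, a vesicle protein outside that list, had -1.86 ± 0.29, adjusted p = 4.32e-05 in the authors' deposited table. Postsynaptic scaffold genes gave 14 of 41 fallen and none risen (12 of these abundant), led by Dlgap1 (-1.59 ± 0.33) and the spine phosphatase partner Ppp1r9b (-1.44 ± 0.33) of the authors' deposited table. Glutamate receptor genes gave 10 of 25 fallen and none risen (8 of these abundant). Gria2, which sets the calcium permeability of AMPA receptors, had -1.71 ± 0.30, adjusted p = 0.000215, and the kainate receptor gene Grik1 had -2.33 ± 0.44 in the authors' deposited table. Receptors for GABA and glycine gave 6 of 17 fallen and none risen, with the GABA-A chain Gabrb2 (-1.97 ± 0.38) in the lead in the authors' deposited table.

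Peptide genes followed the same direction, and channel genes did so in part. Among 43 potassium channel genes 10 fell and 3 rose (6 and 0 of these abundant), and the risen ones were scarce. The fallen share of 23.3% stands beside 11.2% of all genes tested and is near the 20% of abundant genes. Kcnip2 (-1.83 ± 0.34) and Kcnd3 (-2.16 ± 0.51), partners in the A-type current, both fell in the authors' deposited table. Of 27 sodium, calcium and HCN channel genes 9 fell and 1 rose (7 and 1 of these abundant). The fallen share of this list was 33.3%, beside the same 11.2% and 20%. Cacnb4 (-2.22 ± 0.42), a calcium channel subunit, and the sodium channel gene Scn3a (-3.00 ± 0.73) fell in the authors' deposited table. Neuropeptide, granin and processing genes gave 14 of 26 fallen and none risen (10 of these abundant), led by the granule proteins Scg3 (-1.57 ± 0.27, adjusted p = 0.000159) and Chgb (-1.70 ± 0.30) of the authors' deposited table.

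The axonal cytoskeleton and its transport fell as well. Microtubule and growth cone genes gave 23 fallen and 1 risen of 41, all abundant. Stmn4 (-1.15 ± 0.25), a tubulin-binding stathmin, and the dendritic Map2 (-1.70 ± 0.37) fell, and the risen member was Tubb6 (3.39 ± 0.58, adjusted p = 0.000138), a tubulin that is widespread outside the nervous system, in the authors' deposited table. Of 30 motor genes and adaptors 17 fell and 1 rose, with the dynein chain Dync1i1 (-1.35 ± 0.27) and the vesicle kinesins Kif1a (-1.65 ± 0.34) and Kif3a (-1.35 ± 0.28) in the lead and Dynll1 (0.52 ± 0.15) the risen member, in the authors' deposited table. Neurofilament genes gave 1 of 5 fallen, Ina (-1.33 ± 0.35) in the authors' deposited table. Axon guidance genes had 6 risen and 8 fallen members of 53 (1 and 5 of these abundant), shares of 11.3% and 15.1% that lie near those of all genes tested. The ligand Sema3c (-1.46 ± 0.26) and the receptor genes Plxna4 (-1.73 ± 0.43) and Robo2 (-1.26 ± 0.37) fell, and the semaphorin co-receptor Nrp1 rose (1.44 ± 0.36), in the authors' deposited table.

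Genes known from conditioned peripheral neurons gave no common direction. Regeneration transcription factors gave 7 risen and 7 fallen of 25 (5 and 7 of these abundant). Cebpb (2.20 ± 0.40, adjusted p = 0.000289) and Klf4 (2.23 ± 0.54), a repressor of axon growth, rose in the authors' deposited table. Effectors of regeneration gave 8 risen and 5 fallen of 31 (6 and 3 of these abundant). Gap43 (-1.29 ± 0.32) and Basp1 (-1.13 ± 0.26), both growth cone membrane proteins, fell in the authors' deposited table. Immediate early genes gave 8 risen and 4 fallen of 26 (7 and 3 of these abundant). Egr2 (3.01 ± 0.62) and Ier2 (1.14 ± 0.26) rose, against Nr4a1 (-1.30 ± 0.29), Fos (-1.29 ± 0.36) and the neuron-specific, scarce Npas4 (-2.18 ± 0.63), which fell, in the authors' deposited table.

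Genes of the circadian clock fell in the majority. Of 20 clock genes 11 fell and 1 rose, 10 of the fallen ones abundant, and none passed the threshold at day 1, 2, 3 or 7. The output factor Tef (-1.39 ± 0.31, adjusted p = 0.00222), the repressor Nr1d1 (-1.23 ± 0.29, adjusted p = 0.00417) and Bhlhe41 (-2.27 ± 0.61) led this list, and the core activator Arntl (-1.51 ± 0.46) and its repressors Per1 (-1.28 ± 0.43) and Cry2 (-1.02 ± 0.33) fell with them, in the authors' deposited table. The risen member was Bhlhe40 (1.95 ± 0.60 in the authors' deposited table), a repressor that is also induced by growth and stress signals. The labels do not give the hour at which RNA was taken, and its part in these values was not tested.

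Energy and biosynthesis genes moved by smaller amounts, with small errors. Complex I genes gave 9 of 37 fallen and none risen, and genes of complexes III to V 14 of 37 fallen and none risen. The shares are 24.3% and 37.8% against 20% of abundant genes, so the complex I count is near the background. The abundant listed genes of complex I had a median of -0.37 and those of complexes III to V -0.42. Both are smaller in size than the -0.65 of all abundant listed genes. Ndufv3 (-0.67 ± 0.18, adjusted p = 0.0118), Cox8a (-0.60 ± 0.14, adjusted p = 0.00444) and Cox5b (-0.66 ± 0.16) were the leading cases of the authors' deposited table. In the citric acid cycle 3 of 23 genes fell, a share of 13% that is near the background, led by Mdh1 (-0.85 ± 0.16 in the authors' deposited table). Glycolysis genes gave 4 risen and 4 fallen of 25. Ldha (0.59 ± 0.16) and the lactate transporter Slc16a1 (2.08 ± 0.58) rose, against the neuronal forms Ldhb (-0.89 ± 0.21), Eno2 (-0.75 ± 0.23) and Slc2a3 (-1.26 ± 0.36), which fell, in the authors' deposited table. Hypoxia targets gave 4 risen and 5 fallen of 21.

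Cytosolic ribosomal protein genes gave 10 risen and 3 fallen of 62, with Rps20 (0.94 ± 0.18, adjusted p = 0.000498) and Rplp0 (0.70 ± 0.14) risen in the authors' deposited table. The shares of 16.1% and 4.84% stand beside 12.8% and 11.2% of all genes tested, so the risen share is near the background. As ribosomal protein genes have many near-identical pseudogenes and the counting of shared reads is not stated, these values are uncertain. Genes for ribosome assembly gave 2 risen and 3 fallen of 26. Serine, one-carbon and ATF4 target genes gave 9 risen and 4 fallen of 32, led by the translation repressor Eif4ebp1 (1.71 ± 0.25, adjusted p = 1.49e-05 in the authors' deposited table). Cholesterol genes gave 2 risen and 6 fallen of 25 (1 and 6 of these abundant), with Insig1 (-1.29 ± 0.32) and Hmgcs1 (-1.02 ± 0.27) fallen in the authors' deposited table. Their fallen share of 24% is near the 20% of abundant genes that fell. Cytosolic heat shock genes (3 risen and 4 fallen of 21) and metallothionein and zinc genes (2 risen and 1 fallen of 9) moved in both directions. Lysosomal genes (4 risen and 3 fallen of 40, with 3 and 3 abundant) and the proteasome (1 risen of 37) had fewer calls than the 24% of all genes tested.

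Predicted genes left out, the 8 lowest log2 fold changes among abundant genes included those of Sst and Scn3a. The others were Pcdhac2 (-3.03 ± 0.80), a clustered protocadherin, Rgs7 (-2.85 ± 0.85), a regulator of G protein signalling in neurons, the mitochondrial carrier Slc25a27 (-2.75 ± 0.72) and Tnik (-2.74 ± 0.55), a synaptic kinase, of the authors' deposited table. Ccdc177 (-3.30 ± 0.87, adjusted p = 0.00967) was the lowest of all, and Abca5 (-2.72 ± 0.63) is a lipid transporter, in the authors' deposited table. By smallest adjusted p, the fallen genes also held the splicing-related genes Rsrp1 (-1.37 ± 0.22, adjusted p = 7.36e-05) and Luc7l (-1.39 ± 0.23), the guanylate cyclase subunit Gucy1a3 (-1.73 ± 0.27), the migration regulator Elmo1 (-1.67 ± 0.27), Plekhb2 (-1.37 ± 0.20) and Tmem59l (-1.44 ± 0.24) in the authors' deposited table. Lgals1, which encodes the sugar-binding galectin 1 and ranked 255, was among the 8 smallest for risen genes (2.69 ± 0.26, adjusted p = 9.07e-09), while Bmper, a modulator of BMP signalling, was among the 8 highest (6.89 ± 1.08), in the authors' deposited table.

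Other days showed fewer changes. At day 1, 17 genes rose (0.0891%) and 101 fell (0.529%). At day 2 the counts were 361 risen (1.89%) and 779 fallen (4.08%), at day 3 they were 102 (0.534%) and 180 (0.943%), and at day 7 they were 593 (3.11%) and 188 (0.985%). Of the 4575 day 5 genes 3758, or 82.1%, passed at no other day. A day with fewer calls is not shown to differ from day 5 by that count, so the difference itself was tested for each gene from the implied standard errors, by a two-sided t test of the difference adjusted over 19085 genes. Each day has its own naive libraries, and no samples are shared between these comparisons. The day 5 effect differed from that of day 1 for 3071 genes (16.1%), from day 2 for 2548 (13.4%), from day 3 for 3657 (19.2%) and from day 7 for 487 (2.55%).

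**Figure D4:**
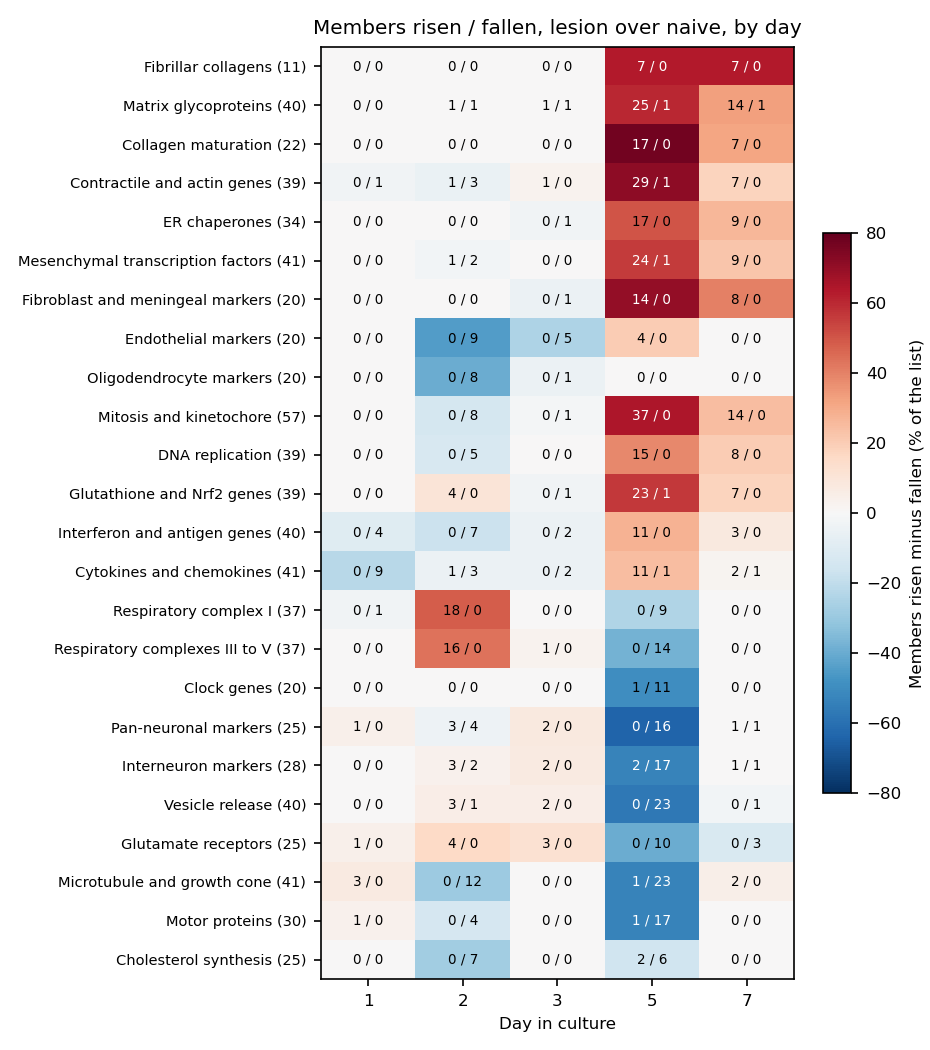
Members of 24 gene lists that rose and fell, lesion over naive, at each day in culture, written as risen / fallen in every cell, with the colour giving risen minus fallen members as a percentage of the list (list size in brackets). Day 5 holds the most calls in 19 lists, ties with day 7 in 1, the fibrillar collagens with 7 risen at both, and has fewer than day 2 in 4, namely endothelial and oligodendrocyte markers and both respiratory lists.

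Day 7 kept part of the day 5 picture. Of the genes called at both days 336 rose at both, 65 fell at both and 15 moved in opposite directions, 416 in all, which is 9.09% of the day 5 calls and 53.3% of the day 7 calls. All 7 risen fibrillar collagens of day 5 were also risen at day 7, with Col1a1 at 3.34 ± 0.36, and its day 5 effect was not shown to differ from that (2.18 ± 0.71, adjusted p = 0.123). For Nqo1 (1.08 ± 0.20 at day 7; difference 3.41 ± 0.44, adjusted p = 4.68e-05), Timp1 (difference 3.18 ± 0.52, adjusted p = 0.00207), Lox (2.96 ± 0.59, adjusted p = 0.0138) and Cyp1a1 (4.88 ± 1.03, adjusted p = 0.0161) the day 5 effect was larger. Of the 57 mitosis genes 14 rose at day 7 and 1 had a larger effect at day 5 by that test. Vesicle release and interneuron genes had 1 fallen member each at day 7. Axon guidance genes had 10 of 53 risen and none fallen at day 7, against 6 risen and 8 fallen at day 5. By the test of the difference, though, 2 interneuron genes, 1 axon guidance gene and no release gene had a lower effect at day 5 than at day 7. Vamp2, for example, stood at -0.55 ± 0.25 at day 7, with a difference of -0.81 ± 0.35, adjusted p = 0.298.

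Days 2 and 3 often ran the other way. Genes called at day 2 as well numbered 366, of which 217 moved in opposite directions (95 rose at day 5 and fell at day 2, and 122 the reverse), 28 rose at both and 121 fell at both. They are 8% of the day 5 calls and 32.1% of the day 2 calls. At day 3 the shared calls numbered 119, or 2.6% and 42.2% of the 2 sets, and 115 of them were opposite. At day 1 they numbered 37, or 0.809% and 31.4%, and 34 were opposite. All opposite pairs passed the test of the difference. Calls of opposite sign at both days make that outcome nearly certain, so it adds no further evidence. Complex I had 18 risen genes at day 2, and for 20 of 37 genes the day 5 effect was lower than the day 2 effect. Cox8a stood at -0.60 ± 0.14 at day 5 and 0.60 ± 0.16 at day 2 (difference -1.20 ± 0.22, adjusted p = 0.000454). Mitosis genes had 8 fallen members at day 2, and 35 of 57 had a higher effect at day 5. Of 20 clock genes 6 had a lower and 1 a higher effect at day 5 than at day 2, and none differed from day 7. Markers of other cell types were called at day 2 as well, with 9 of 20 endothelial and 8 of 20 oligodendrocyte markers fallen, and their part in these differences was not tested.

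Neuronal lists were mixed at day 2. Microtubule and growth cone genes had 12 fallen and none risen at day 2, motor genes 4 fallen and none risen, and pan-neuronal markers 3 risen and 4 fallen. For 5, 5 and 11 genes of these lists the day 5 effect was lower than the day 2 effect, and for 20 of 40 vesicle release genes. Gria2 and Gad1, chosen for their opposite signs, are examples. Gria2 was at -1.71 ± 0.30 at day 5, against 1.63 ± 0.35, 0.79 ± 0.24 and 1.46 ± 0.28 at days 1, 2 and 3, each past the threshold in the authors' deposited table, and the differences passed at adjusted p-values of 3.78e-05, 9.93e-05 and 7.65e-06. Gad1 was at -1.64 ± 0.28 at day 5, against 1.06 ± 0.27 at day 2 and 1.21 ± 0.29 at day 3 in the authors' deposited table, with differences of -2.70 ± 0.39, adjusted p = 3.56e-05 for day 2 and -2.85 ± 0.40, adjusted p = 2.22e-05 for day 3. At day 7, Gad1 stood at -1.01 ± 0.28, and the difference from day 5 was not past the threshold (-0.63 ± 0.40, adjusted p = 0.753).

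**Figure D5:**
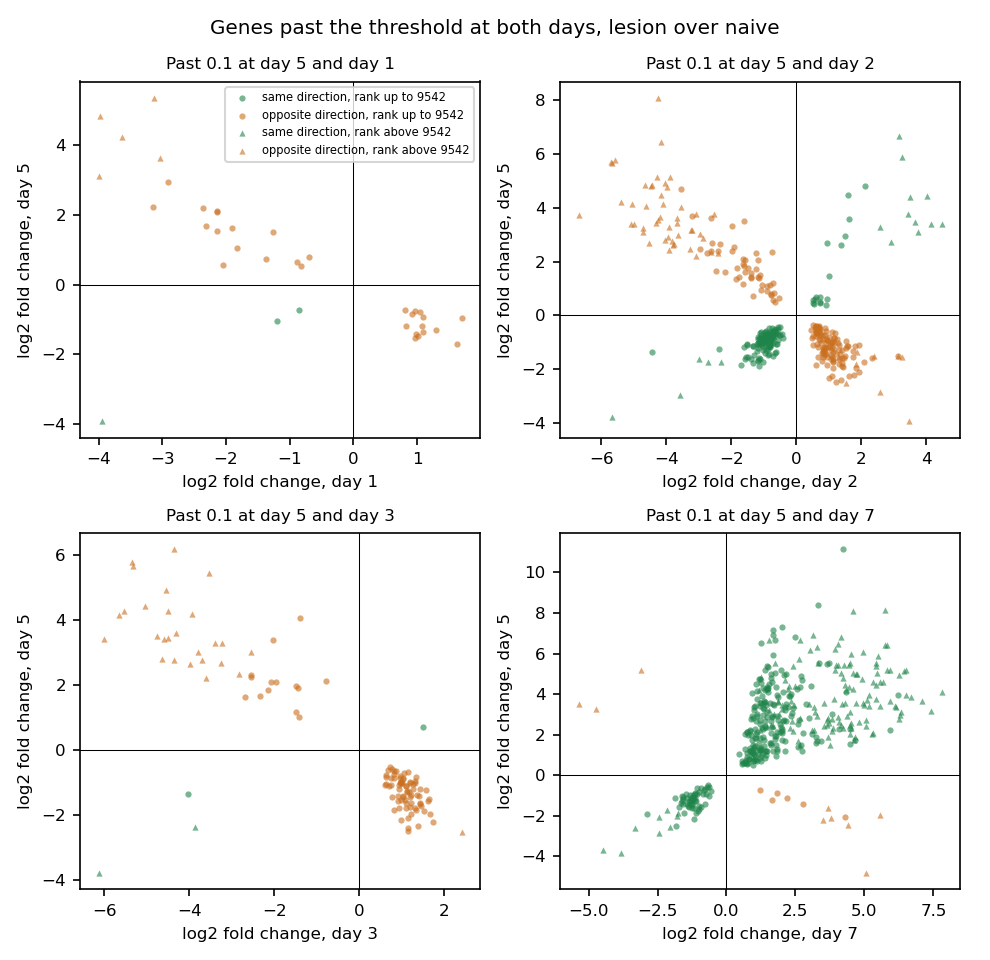
Log2 fold change at day 5 (vertical) against that at day 1, 2, 3 or 7 (horizontal), lesion over naive, for genes called at both days; green points have the same direction, orange points the opposite, and triangles mark ranks above 9542. Opposite directions make up 34 of 37 genes with day 1, 217 of 366 with day 2 and 115 of 119 with day 3, but 15 of 416 with day 7.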

How the data were processed

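RNA was measured in cortical cultures of adult mice with an ultra-low input library kit on a HiSeq4000, per the labels' protocols. Per the submitters' processing notes, STAR and mm10 were used. How reads were counted, filtered and scaled is not given in the sources used here. The deposited table, made with voom and limma per its name, holds the authors' log2 fold change of every listed gene by day, with a raw and an adjusted p-value, per the file headers, and a rank score that the authors did not explain. That score was taken as a rank by mean expression, since implied errors grow with it. The number of genes tested is the ratio of adjusted to raw p-value at its largest. No count, depth or per-library value was used, so precision per sample is unknown. Samples were grouped by title. Members and gene lists were chosen with earlier results of these data known.

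Genes were called at the authors' adjusted p under 0.1, since no test could be fitted again. Standard errors were implied by the deposited fold change and p-value at 37 degrees of freedom, the number at which a gene's errors at the 5 days varied least, over genes up to rank 4771. A fit of 10 means to 29 libraries alone leaves 19. Day differences used these errors, with unlisted genes given a p of 1, which makes the counts lower bounds. The test was checked on simulated data, drawn from errors of abundant genes under its own error model and degrees of freedom. That check covers the calculation, and neither those settings nor the scarce genes. The 76 lists hold 1983 genes, of which 1019 are listed, 7 through a synonym. Promoters came from RefSeq, GRCm38.p6. Of 5442 listed genes with a chromosome in the table and a unique GENCODE model, 5439 lie on the same chromosome in both. Python 3 with pandas, NumPy, SciPy and matplotlib was used (versions 3.11.15, 2.3.3, 2.4.6, 1.17.1 and 3.10.9).

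Named genes are the 8 highest, 8 lowest and 8 smallest adjusted p per direction among genes ranked up to 9542, up to 3 members per list by adjusted p, and up to 6 genes per other day with opposite calls and the largest difference, without predicted genes, 247 in all, of which the text names a part. Some genes of these rules and lists are not reported here. Other genes named were chosen after their values were seen: Ahr, Ahrr, Aldh3a1, Apaf1, Arntl, Basp1, Bbc3, Bcl2l1, Bhlhe40, Cdk1, Cdkn1b, Cldn5, Crtap, Cry2, Csf1r, Dcn, Ddx3y, Dlx1, Dynll1, Eif2s3y, Eno2, Erbb4, Erg, Fkbp10, Fos, Gap43, Gclc, Gss, Hapln1, Hspa5, Id4, Kdm5d, Lum, Malat1, Mgst1, Mgst3, Miat, Myh10, Ncan, Ncapg, Neat1, Nfe2l2, Nog, Npas4, Nrp1, Ntrk2, Ntrk3, Park7, Pdgfrb, Per1, Plxna4, Rb1, Rian, Robo2, Sec16a, Sec23a, Sec24b, Serpine2, Serpini1, Slc2a3, Slc7a11, Snap25, Snhg11, Sod1, Sparcl1, Tgfb1, Tgfbr2, Timp2, Tiparp, Tpm2, Tsix, Tubb3, Ugdh, Uty and Xist.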

Additional observations from a re-analysis of the deposited data

Results flagged for a closer look

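The day 5 effect differed from that of another day for 3071 genes against day 1, 2548 against day 2, 3657 against day 3 and 487 against day 7, by the two-sided t test of the difference between 2 days from implied standard errors, adjusted over 19085 genes. Abundant genes past the threshold in opposite directions at both days, with the largest differences in log2 fold change (day 5 minus the other day), included the following. Against day 1 they included the prostaglandin synthase Ptgs2 (5.84), the injury-linked factor Cebpb (4.56), the small GTPase Rhoc (4.26), Nfkb2 (4.23) of the NF-kappa B family and the adhesion gene Tns3 (3.99), each risen at day 5 and fallen at day 1 in the authors' deposited table. Ptgs2 stood at 2.94 ± 0.65 at day 5 and -2.90 ± 0.74 at day 1 in the authors' deposited table.

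Against day 2 they were the erythroid haem enzyme Alas2 (8.26), the helicase gene Mcm3 (6.91), the proliferation marker Mki67 (6.24), Itprip (5.42), the basement membrane collagen Col4a1 (5.30) and the lipid phosphatase Ppap2b (5.28), each risen at day 5 and fallen at day 2. Mki67 stood at 3.62 ± 0.95 at day 5 and -2.63 ± 0.86 at day 2, and Col4a1 at 3.33 ± 0.70 and -1.96 ± 0.52, in the authors' deposited table. Against day 3 they were the adaptor Shc1 (5.46), Gng11 (5.40), the small heat shock protein gene Hspb1 (4.78), the transporter Slc16a9 (4.32), the innate immune adaptor Myd88 (4.16) and the YAP partner Wwtr1 (4.07), again risen at day 5 and fallen at day 3.

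Against day 7 the genes were Zfp51 (-6.38), Zfp949 (-4.21), the centrosomal Cep63 (-3.31), the RNA polymerase I subunit Polr1a (-2.88) and the splicing gene Sart1 (-2.73), each fallen at day 5 and risen at day 7. Only these 5 genes of the kind were named for day 7, as the sixth abundant gene was a predicted one, which the naming rule leaves out. The naive group of day 7 held 2 libraries.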

How the results depend on the processing

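No paired analysis was possible because the table holds comparisons and no value per library, so the replicate block and leaving out each replicate were not run. Stricter thresholds and rank moved the counts. At day 5 the 4575 calls became 2872 at an adjusted p under 0.05 (1509 risen, 1363 fallen), 1098 under 0.01 (644 risen, 454 fallen) and 2853 among abundant genes (947 risen, 1906 fallen). A log2 fold change of at least 1 in size left 1309 of the 2137 fallen genes and 2196 of the 2438 risen ones. Counts of day differences stayed within 1.5 times under 19 degrees of freedom. Among abundant genes they became 2312 for day 3 and 305 for day 7, and at a threshold of 0.05 the day 7 count became 200.

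Of 71 lists with more members moving one way, 66 kept that majority at an adjusted p under 0.05, 1 tied and 4 turned (hypoxia targets, lysosome, cytosolic heat shock and ribosome assembly). Among abundant members 66 kept it and 5 tied, and without genes that another list holds all 71 kept it. Of 247 named genes 236 passed at 0.05 and 189 at 0.01. Searched on the gene's own strand only, TTTGAA stood in 53.1% of mitosis genes and 11.6% of all genes, and TGACNNNGC in 17.6% of glutathione genes, in 0 of 22 thioredoxin, peroxiredoxin and iron genes (5 on both strands) and in 7.29% of all. Depth is unknown, so how far counting error limits scarce genes cannot be given.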

Other observations

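Families were picked by symbol after their values were seen in the authors' deposited table for day 5, and most moved largely one way. Annexin genes, calcium-dependent membrane binders, gave 7 of 7 listed genes risen, and S100 genes 5 of 8 risen with none fallen. Cytochrome P450 genes gave 20 of 22 risen, but only 3 of these were abundant, and of all 2219 listed scarce genes 1491 rose. Ubiquitin-specific protease genes gave 14 of 17 listed fallen and none risen, ubiquitin-conjugating enzymes 8 of 9 fallen and 1 risen. RNA helicases of the Ddx series gave 11 of 15 fallen and none risen, RNA-binding motif genes 12 of 17 fallen and 2 risen, and hnRNP genes 9 of 16 fallen and 1 risen. Splicing genes (Srsf, Sf3, Luc7l and Clk symbols) gave 14 of 16 fallen and 1 risen. Zinc finger genes of the Zfp series gave 40 of 70 fallen and 10 risen. Protocadherins gave 5 of 26 risen and 9 fallen, and microRNA genes, all scarce, 4 of 16 risen and 9 fallen. Of all 3607 listed abundant genes 52.8% fell, so the hnRNP share is near that of abundant genes at large. Genes that are not listed are not counted, and a gene is listed only if it passed on some day, which raises these shares.

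Some non-coding RNAs that stay in the nucleus fell at day 5. Malat1, which ranked 10, stood at -1.72 ± 0.36, adjusted p = 0.00127 for day 5 and 2.09 ± 0.31 for day 2 in the authors' deposited table, with a difference of -3.81 ± 0.47, adjusted p = 2.89e-06. Meg3 had a difference of -4.05 ± 0.47, adjusted p = 1.14e-06 from day 2. Rian (-1.32 ± 0.43) and the scarce Snhg11 (-1.56 ± 0.49) fell at day 5 in the authors' deposited table, while Neat1 and Miat are not listed.

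Xist, the RNA that silences an X chromosome in female cells, fell at day 5 (-1.52 ± 0.37, adjusted p = 0.00573), as did its scarce antisense partner Tsix (-1.75 ± 0.54, adjusted p = 0.0256), in the authors' deposited table. Whether counting used strand is not stated, so reads of this pair cannot be told apart. At the other days Xist did not pass the threshold (1.15 ± 0.32, 0.045 ± 0.25, 0.18 ± 0.26 and -0.058 ± 0.39 at days 1, 2, 3 and 7), and its day 5 effect differed from those of days 1, 2 and 3 (adjusted p = 0.000647, 0.0198 and 0.00938) but not past the threshold from that of day 7 (0.194). The Y-linked genes Ddx3y, Uty, Eif2s3y and Kdm5d are not listed. The labels do not give the sex of the animals, and its part in the day 5 differences was not tested.

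Abundant genes that fell spanned more of the genome than those that rose, by GENCODE vM21 gene models on GRCm38, the assembly called mm10. The median span was 18.6 kb for 916 risen and 37.8 kb for 1827 fallen abundant genes with a unique model, and 25.6 kb for 734 listed ones that did not pass at day 5. Of the abundant risen genes 99.6% and of the fallen ones 99% were protein-coding. Among scarce genes that rose 90.6% were protein-coding and 58 of 1417 were long intergenic RNAs.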
